A study of Mus musculus with 8 samples.

Results

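The cells described here are a small set from day 5 of wild-type embryoid body differentiation, named for Fgf3 and Cfc1, a secreted growth factor and a membrane-bound Nodal co-receptor of early mesoderm. They numbered 146 of 4392 kept cells (3.32%, exact Clopper-Pearson 95% interval 2.81 to 3.90%). A cell was chosen when it held at least 1 unique molecular identifier (UMI, a tag that marks 1 captured transcript) of 2 or more of Fgf3, Cfc1, Rspo3 and Vstm2b. It also had to hold no UMI of Epcam, Pitx1, Upk3b or Lum, with no more than 15% of its UMIs from mitochondrial genes. The cells were thus chosen on measured values of the same library, so their contrast with the other 4246 wild-type cells is given as a description, without a test. They are called the members.

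The study asked what TET proteins, which oxidise 5-methylcytosine in DNA, contribute when mouse embryonic stem cells differentiate toward the heart. Both groups used here came from the E14-NKX2-5-EmGFP line, kept on mitomycin C-treated mouse embryonic fibroblast feeders with leukemia inhibitory factor and then grown as hanging-drop embryoid bodies without that factor. The wild-type (WT) group and the Tet-triple knockout (TKO) group had 1 single-cell RNA library each at day 5, with no drug treatment. A further 6 pull-down samples of wild-type cells were not analysed here. No value below has a replicate check, and intervals, which are 95% throughout, cover counting error only.

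Fgf3 binds FGF receptors and signals through the MAP kinase cascade. Cfc1 (Cryptic) belongs to the EGF-CFC family that lets Nodal engage its activin-type receptors, and mice without it have defects of left-right patterning and of the heart. Rspo3 is a secreted R-spondin that amplifies Wnt signals through Lgr receptors and the ubiquitin ligases Rnf43 and Znrf3, and it acts in heart and vessel development. Vstm2b is an immunoglobulin-domain membrane protein. In the early embryo, mesoderm leaves the primitive streak and is divided into paraxial, lateral and extraembryonic parts, and heart progenitors arise from the lateral part.

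The 250 bases before the start sites of 4 of these genes are shown because TET enzymes act at cytosines, mostly in CG pairs, and these stretches differ widely in them. Sequences are from RefSeq on build GRCm38.p6 and read 5′ to 3′ on the strand of the gene, with each CG in capitals. They lie on the plus strand at chr1:34535398-34535647 for Cfc1, chr7:144838362-144838611 for Fgf3, chr7:40899028-40899277 for Vstm2b and chr1:169655251-169655500 for Rgs5, a gene followed below.
Cfc1: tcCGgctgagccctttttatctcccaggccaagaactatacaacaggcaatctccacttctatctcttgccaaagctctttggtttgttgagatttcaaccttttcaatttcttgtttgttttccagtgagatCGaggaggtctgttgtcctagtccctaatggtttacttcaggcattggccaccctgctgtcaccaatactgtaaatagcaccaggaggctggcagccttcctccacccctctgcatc
Fgf3: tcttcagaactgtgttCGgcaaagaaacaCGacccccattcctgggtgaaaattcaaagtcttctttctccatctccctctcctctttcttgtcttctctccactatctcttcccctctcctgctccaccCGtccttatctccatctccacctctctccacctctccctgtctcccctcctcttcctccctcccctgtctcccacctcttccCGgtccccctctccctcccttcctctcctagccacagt
Vstm2b: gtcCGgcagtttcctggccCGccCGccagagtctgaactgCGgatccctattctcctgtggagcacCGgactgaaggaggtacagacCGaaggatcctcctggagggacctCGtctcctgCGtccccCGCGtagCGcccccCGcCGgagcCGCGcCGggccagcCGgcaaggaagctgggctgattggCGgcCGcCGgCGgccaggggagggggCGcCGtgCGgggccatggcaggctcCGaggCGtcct
Rgs5: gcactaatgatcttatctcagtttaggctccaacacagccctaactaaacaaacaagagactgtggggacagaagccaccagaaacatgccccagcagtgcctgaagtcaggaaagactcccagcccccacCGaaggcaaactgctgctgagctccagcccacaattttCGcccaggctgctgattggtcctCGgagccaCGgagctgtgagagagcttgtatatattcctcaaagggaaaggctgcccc
The stretch held 2 CG at Cfc1, 4 at Fgf3, 4 at Rgs5 and 26 at Vstm2b. The median over 32851 mouse promoter stretches of the same length was 6, with quartiles of 2 and 16. Cfc1 lies in the CG-poor range of promoters, and Vstm2b lies above the upper quartile. Rspo3 and Rnd2 are named only.

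The deposited counts held 37537946 UMIs in 4395 WT-labelled cells and 33602635 UMIs in 3223 TKO-labelled cells. Members had a median of 8459 UMIs (2959 to 26132) and 2511.5 genes per cell, against 7826.5 UMIs and 2431 genes in the other WT cells. Their median mitochondrial share was 3.45% against 3.44%, and the share of UMIs in ribosomal protein genes was 35.6% against 31.1%. The targeted genes were still counted in the TKO-labelled library, with Tet1 at 22.8 CPM (UMIs of the gene for every 1000000 UMIs) against 12.3 in the WT-labelled one, Tet2 at 4.60 against 6.82 and Tet3 at 20.3 against 29.2. Which part of each gene was deleted is not given in the labels, so whole-gene counts do not check the genotype. The headers of the libraries share 21 barcodes. No doublet caller was used, and 13 members had more than 2 times the library's median UMIs.

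Of the genes that chose the members, Rspo3 was found in 120 cells, Cfc1 in 78, Fgf3 in 75 and Vstm2b in 61. A single member held 0 to 16 UMIs of Rspo3 (median 1), 0 to 8 of Cfc1 (median 1), 0 to 14 of Fgf3 (median 1) and 0 to 4 of Vstm2b (median 0). The choice therefore rests on few molecules per cell. Summed over members and scaled to CPM, Fgf3 stood at 122 against 12.0 in the other WT cells, Cfc1 at 126 against 11.4, Rspo3 at 228 against 36.3 and Vstm2b at 64.3 against 10.8. These differences follow from the choice.

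The most common combinations were Fgf3 with Rspo3 (31 cells), Cfc1 with Rspo3 (29) and Rspo3 with Vstm2b (27). All of the 4 genes were found in 6 cells, and exactly 2 were found in 110. Fgf3 and Cfc1 were found together in 34 members (23.3%), Cfc1 without Fgf3 in 44, Fgf3 without Cfc1 in 41, and neither in 27 (18.5%). The cells are thus mostly held together by Rspo3, and fewer than 1 in 4 carried both of the genes that name them.

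Just outside the rule stood 465 WT cells with 1 of the 4 genes and none of the absent genes. Another 138 cells had at least 2 of the genes but also an absent one: Pitx1 in 67, Lum in 53, Upk3b in 48 and Epcam in 16. A single UMI of Pitx1 and of no other absent gene kept 24 of these cells out, and a single UMI of Upk3b, Lum or Epcam kept out 17, 14 and 3. Rgs5 stood at 102 CPM (81.8 to 125) in the 67 cells kept out with Pitx1, against 137 in the members. The edge drawn by Pitx1, a homeobox factor of hindlimb-forming lateral mesoderm, thus runs through cells that also carried Rgs5.

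Of the 5 marker genes given for these cells, only Rgs5 and Rnd2 played no part in choosing them. Rgs5, which speeds the shutdown of G-protein signalling and is known from pericytes, gave 0 to 10 UMIs per member (median 0) and was found in 67 of them. Its level was 137 CPM (118 to 158) in members and 28.6 in the other WT cells, 4.81 times higher (4.10 to 5.62). The 10 members richest in Rgs5 held 39.5% of its UMIs, so the level was spread over many cells, with no UMI found in the majority.

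Rnd2, a small GTPase that acts on the actin cytoskeleton, gave 0 to 8 UMIs per member (median 0) and was found in 60. Its level was 83.8 CPM (69.3 to 101) against 29.6, 2.83 times higher (2.32 to 3.43). Both markers stood above the other WT cells. As a gauge of free RNA, 45.9% of members held a UMI of Rgs5, against 12.98% of the other WT cells and 18.3% of 224 cells in a cluster led by the endoderm gene Ttr. For Rnd2 the shares were 41.1%, 19.4% and 11.6%. The Ttr-led cells had a median of 7541 UMIs. Their share with Rgs5 lay above that of the other WT cells, so they are not a clean gauge of free RNA for Rgs5. Whether they expressed it was not tested.

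The same gauge sets a limit on Cfc1: 30.8% of the Ttr-led cells (24.8 to 37.3%) held a UMI of it, against 53.4% of members, while for Fgf3 the shares were 0.446% and 51.4%, for Rspo3 5.80% and 82.2% and for Vstm2b 3.12% and 41.8%. Among the other WT cells the share with Cfc1 was 4.95%, so the Ttr-led cells are not a clean gauge of free RNA for Cfc1 either. Cfc1 was thus found in endoderm-marked cells as well, and Fgf3 was rarely found there. Endoderm genes themselves were low in members. Ttr, the thyroxine carrier of visceral endoderm and liver, was found in 8.22% of members and 10.8% of the other WT cells.

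The label of mesoderm progenitors was set against the marker lists. Hand1, a factor of lateral and extraembryonic mesoderm, was found in 84.9% of members, 79.9% of the other WT cells and 20.5% of the Ttr-led cells, and stood at 652 CPM (610 to 696), against 632 in the other WT cells. Hand2, its relative in heart and limb mesoderm, stood at 91.1 against 88.3 CPM, and Tbx20, a heart T-box factor, at 43.4 against 44.3. These mesoderm genes were present in members at the level of the remaining WT cells. Of 15 tested genes of lateral and heart progenitor mesoderm, 2 were at least 2-fold higher and 1 at least 2-fold lower, with a median log2 ratio of 0.05. Over all 14013 genes tested, 6.82% were at least 2-fold higher in members and 7.89% at least 2-fold lower, with a median of -0.05.

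The data go against the label for some cells. In a clustering made without the 8 genes of the rule, 20 members (13.7%) lay in clusters led by blood or endothelial genes, and in these 20 Hand1 stood at 86.8 CPM and Cfc1 at 0. The words "of wild type" are also not borne out by the count alone. The same rule found 198 of 3197 TKO-labelled cells (6.19%, 5.38 to 7.09%). With every cell thinned to 4000 UMIs drawn at random the share was 2.16% in WT (87 of 4019, 1.74 to 2.66%) and 2.33% in TKO (70 of 3007, 1.82 to 2.93%). Thinning left out 373 shallower WT and 190 shallower TKO cells, among them 1 and 6 that met the rule.

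**Figure D1:**
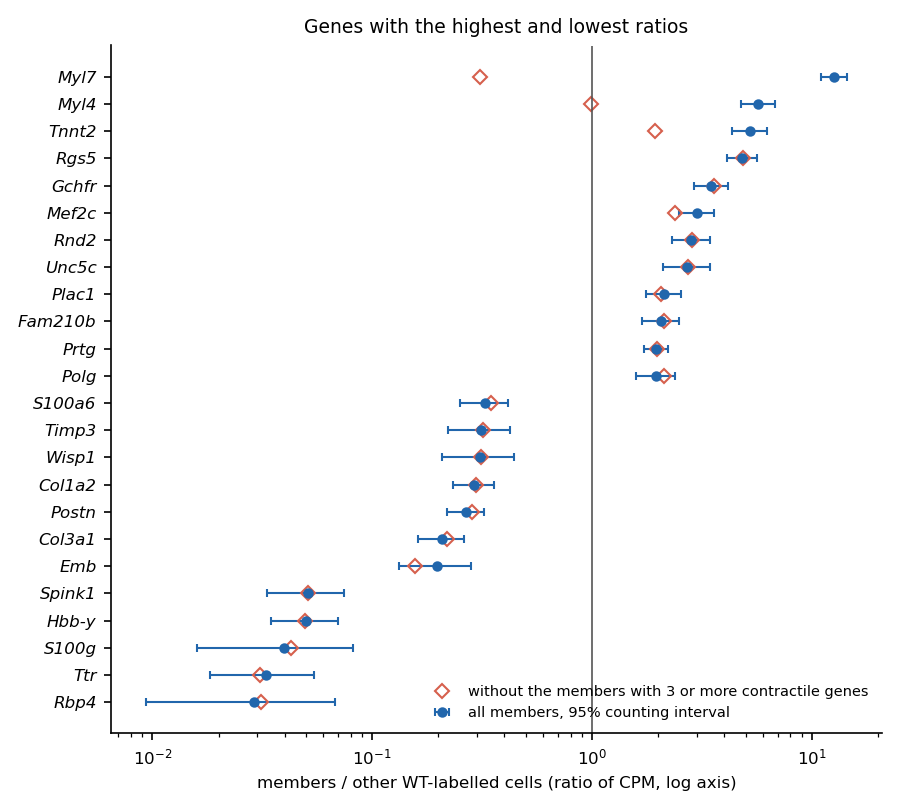
Ratio of the level in members to that in the other WT cells (horizontal, log axis) for the 12 genes with the highest and the 12 with the lowest ratio among genes of at least 50 CPM. Filled points are all members with 95% counting intervals, and open diamonds leave out the 10 members with 3 or more contractile genes, without which Myl7 moved from 12.6-fold higher to below 1 while Rgs5 stood at 4.88.

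Among genes of at least 50 CPM in either group and outside the rule, the highest ratios belonged to contractile genes, and these came from few cells. Myl7, the atrial myosin light chain, stood at 223 CPM in members and 17.7 in the other WT cells, 12.6 times higher (10.97 to 14.47). Its 308 UMIs lay in 10 cells, and 1 cell held 223 of them, 72.4%. The next cell held 26.

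Myl4, an embryonic atrial light chain, stood at 113 against 19.8 CPM with its 157 UMIs in 22 cells. Tnnt2, cardiac troponin T, stood at 108 against 20.6 CPM, 5.22 times higher (4.35 to 6.23), in 40 cells. Tnnt2 was thus the most widely found of these, at 27.4% of members against 11.5% of the other WT cells and 1.34% of the Ttr-led cells. For Myl7 these shares were 6.85%, 2.10% and 5.36%.

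Below 50 CPM, Ttn, the sarcomere spring titin, followed the same pattern, with 36.1 against 3.82 CPM from 50 UMIs in 9 cells. Of 12 tested cardiomyocyte genes, 10 were at least 2-fold higher in members, with a median log2 ratio of 2.29. Only 10 members (6.85%, 3.33 to 12.2%) held 3 or more of 14 contractile genes, against 47 of the other WT cells (1.11%). Without those 10, 1 of the 12 genes was at least 2-fold higher (against 6.9% of all genes) and 4 at least 2-fold lower (against 7.94%), the median was -0.19, and Myl7 lay below the other cells with a log2 ratio of -1.59. Tnnt2 then stood at 39.9 CPM, 1.93 times the other cells. In the thinned cells 4 of 87 members (4.60%) and 25 of 3932 other WT cells (0.636%) had 3 or more contractile genes. Of all 57 WT cells with 3 or more, 10 (17.5%) were members.

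**Figure D2:**
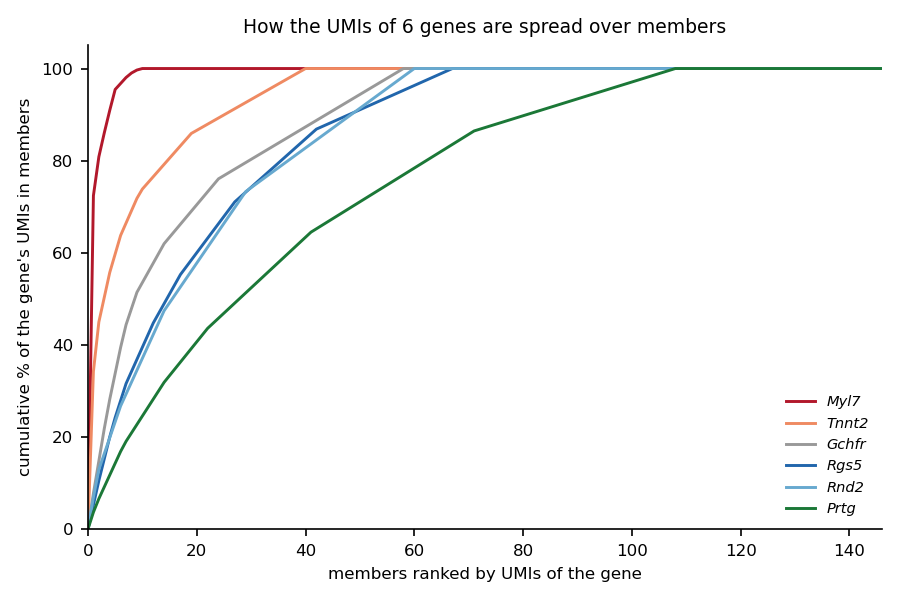
Cumulative percentage of a gene's UMIs in the members (vertical axis) as members are added from the richest cell down (horizontal axis, number of cells). Myl7 reached 100% within 10 cells, while the 10 richest cells held 39.5% of Rgs5 and 24.5% of Prtg.

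Genes spread over more members followed. Gchfr, a regulator of the enzyme that starts tetrahydrobiopterin synthesis, gave 0 to 11 UMIs per cell, was found in 58 members and stood at 103 CPM (86.4 to 121) against 29.4, 3.50 times higher (2.91 to 4.17). Mef2c, a MADS-box factor of heart and vessel progenitors, gave 0 to 13 UMIs per cell in 58 members and stood at 98.3 against 32.7 CPM (3.01 times, 2.50 to 3.60). Unc5c, a netrin receptor, gave 0 to 3 UMIs per cell in 48 members and stood at 52.0 against 19.2 CPM (2.71 times, 2.10 to 3.46). The low maximum of Unc5c means that no single cell carried its level.

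Plac1, a membrane-associated protein known from the placenta, stood at 96.1 against 45.3 CPM (2.12 times, 1.76 to 2.53). Prtg, the immunoglobulin-family receptor protogenin of early embryonic tissue, gave 0 to 10 UMIs per cell with a median of 1 and was found in 108 members. Its level was 197 against 100.4 CPM, 1.96 times higher (1.73 to 2.22). Prtg was the most evenly spread of the genes ranked by cell. It was found in 74.0% of members, 47.1% of the other WT cells and 53.6% of the Ttr-led cells. The mitochondrial DNA polymerase gene Polg stood at 76.6 against 39.1 CPM (1.96 times, 1.59 to 2.39), and Fam210b, a mitochondrial protein of red cell precursors, at 80.9 against 39.3 CPM (2.06 times, 1.68 to 2.50).

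Without the 10 members rich in contractile genes, Rgs5 stood at 139 CPM (4.88 times the other WT cells), Rnd2 at 84.5 (2.85), Gchfr at 106 (3.60), Unc5c at 52.4 (2.73) and Mef2c at 78.2 (2.39). Of these, Mef2c moved most. Its 10 richest members held 45.6% of its UMIs.

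The lowest ratios fell on genes of other cell types. Of 13 endoderm genes, 10 were at least 2-fold lower in members and none higher, with a median log2 ratio of -1.98 and a summed level of 86.7 against 593 CPM. Rbp4, the retinol carrier, stood at 3.61 against 125 CPM, Ttr at 10.8 against 330, and Spink1, a trypsin inhibitor, at 18.8 against 370. S100g, a calcium-binding protein of visceral endoderm and gut, stood at 5.06 against 128 CPM, and Cldn6, an epithelial tight-junction protein, had 0 UMIs in members against 31.3 CPM. Emb, the membrane protein embigin, stood at 21.7 against 110 CPM, and the embryonic globin gene Hbb-y, of primitive red cells, at 24.6 against 491. The rule bars cells with Epcam, an epithelial gene, so that the low endoderm genes are partly set by the choice.

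Matrix genes of mesenchyme were low as well: 6 of 14 were at least 2-fold lower and none higher, with a median of -0.89 and a summed level of 1536 against 2974 CPM. Col3a1, a fibrillar collagen, was found in 23.3% of members against 56.1% of the other WT cells and 9.82% of the Ttr-led cells, and stood at 50.6 against 244 CPM, 4.82-fold lower (3.81 to 6.19). Postn, the matrix protein periostin, gave 0 to 12 UMIs per member and stood at 79.5 against 298 CPM, 3.75-fold lower (3.10 to 4.56). Col1a2, a chain of type I collagen, was 3.44-fold lower, Wisp1, a secreted matricellular protein, 3.24-fold, and Timp3, an inhibitor of matrix proteases, 3.21-fold. S100a6, a calcium-binding protein of many mesenchymal cells, was 3.08-fold lower. The rule bars cells with Lum, itself a matrix proteoglycan.

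How much of this is set by the absent genes was read against the 1564 other WT cells that also had no UMI of them. The members still stood above those cells in Rgs5, 4.81 times (4.00 to 5.75), in Rnd2, 2.52 times (2.03 to 3.10), in Gchfr, 2.59 times (2.13 to 3.13), in Unc5c, 2.49 times (1.89 to 3.25), and in Prtg, 2.12 times (1.85 to 2.42). Mef2c stood at 1.72 times (1.42 to 2.07), below the 2-fold mark. The low matrix genes drew much closer: 1 of 13 tested was at least 2-fold lower (against 7.87% of all genes), with a median of -0.19, Postn was 1.99-fold lower (1.64 to 2.43) and Col3a1 2.49-fold lower (1.96 to 3.21). Endoderm genes stayed low, with 7 of 11 at least 2-fold lower and a median of -1.95. Blood genes became lower, with 10 of 11 and a median of -1.85; Hba-x stood at 4523 CPM in those other cells, against 911 in members. Hand1 stood at 652 against 462 CPM in this comparison, 1.41 times higher (1.32 to 1.52), and 5.24% of all genes were at least 2-fold higher.

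Smooth muscle actin Acta2 stood at 413 CPM in members and 776 in the other cells (1.88-fold lower), while the muscle filament desmin, Des, stood at 62.9 against 40.2. Of 9 smooth muscle and pericyte genes, 2 were at least 2-fold higher, Rgs5 itself and Ndufa4l2 from 5 UMIs. The actin-binding genes Tagln, at 26.0 against 67.1 CPM, and Cnn1, from 1 UMI, were lower. Of 8 mesothelial genes, 3 were at least 2-fold lower and none higher.

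Members differed among themselves along Cfc1. Rgs5 stood at 208 CPM in the 78 members with Cfc1 and 60.3 in the 68 without (3.45 times, 2.42 to 5.02). Plac1 stood at 153 against 34.7 CPM (4.40 times, 2.79 to 7.23). Mef2c stood at 132 against 61.8 CPM, and Rnd2 at 94.4 against 72.4 with an interval of the ratio from 0.89 to 1.93. Rgs5 and Plac1 thus went with Cfc1, while Rnd2 did so by no more than its counting error. The members without Cfc1 included all 20 in blood- and endothelium-led clusters, whose low Rgs5 is given below. The split was not repeated without those 20, so the size of these ratios among the remaining members was not tested. Cfc1 only divides the members, and it was also used to choose them.

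The highest Rgs5 was in members with Cfc1 but no Fgf3, at 258 CPM (210 to 315), followed by 152 (114 to 200) in those with both, 88.0 (54.5 to 135) in those with neither and 44.8 (26.9 to 69.9) in those with Fgf3 alone. The interval of the last of these overlaps that of cells with neither and includes the 28.6 of the other WT cells. Mef2c and Tnnt2 were also highest in members with Cfc1 alone, at 198 and 285 CPM, and 7 of the 10 members rich in contractile genes were among these. Without them Mef2c stood at 138 CPM (99.98 to 186), Tnnt2 at 70.7 (44.3 to 107) and Rgs5 at 276 (221 to 341) in members with Cfc1 alone. In members with both genes, none of which was rich in contractile genes, Tnnt2 stood at 41.0 CPM (22.4 to 68.8), so that the intervals of Tnnt2 then overlapped. Fgf15, an FGF ligand of the endocrine subfamily, went the other way: it stood at 53.5 CPM in members with Fgf3 and 12.9 in those without (4.14 times, 1.91 to 10.2). Kdr, the VEGF receptor of vascular and heart-forming mesoderm, stood at 99.3 against 48.6 CPM along the same split. The endothelial genes Cldn5 (11 against 0 UMIs) and Cdh5 (15 against 1) lay on the same side. How much of the Kdr difference came from endothelial members was not tested.

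**Figure D3:**
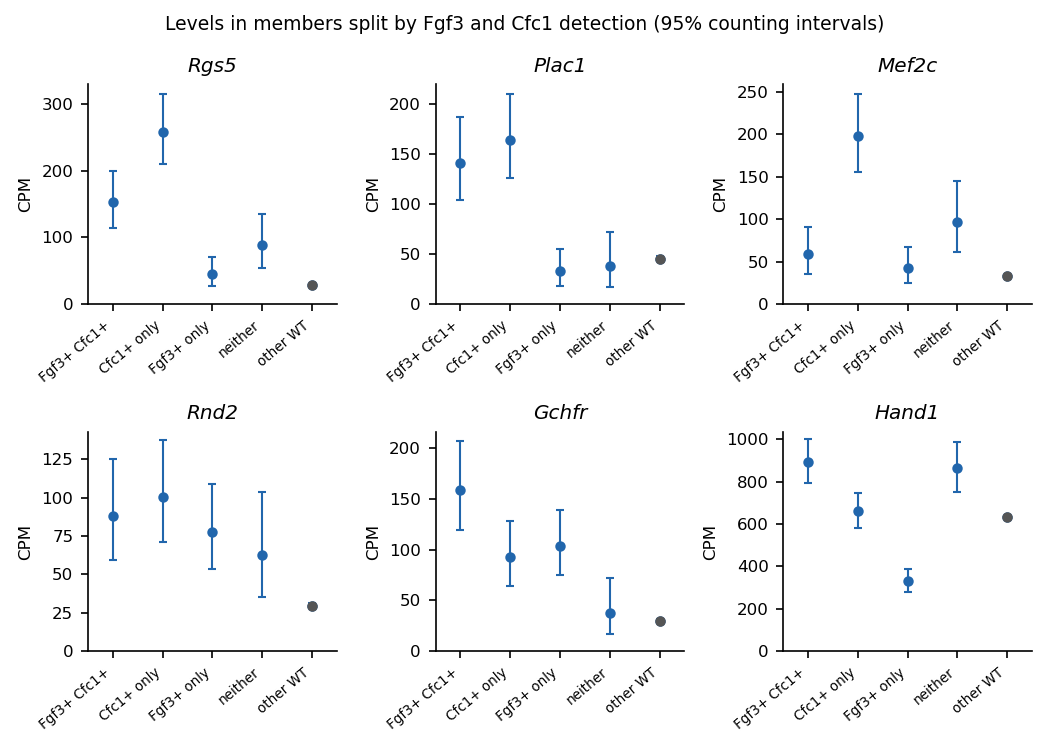
Level in CPM, with 95% counting intervals, of genes named in the text in members split by whether Fgf3 and Cfc1 were found, and in the other WT cells. Rgs5 ran from 44.8 CPM in members with Fgf3 alone to 258 in members with Cfc1 alone.

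Members with Fgf3 alone included blood and endothelial cells. The embryonic globin gene Hba-x stood at 2779.6 CPM in them, against 73.3 in members with both genes, 79.1 with Cfc1 alone and 105 with neither, and 1 member held 434 of its UMIs. The 20 members in blood- and endothelium-led clusters held 1164 of the members' Hba-x UMIs and stood at 5054 CPM. They carried Fgf3 at 174 and Rspo3 at 261 CPM, but Rgs5 at 13.03 and Rnd2 at 17.4.

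The 10 members in the cluster led by Cldn5, an endothelial junction protein, had Cldn5 at 98.2 CPM, Kdr at 265 and Gchfr at 187, with 0 UMIs of Unc5c. Cdh5, the endothelial cadherin, had 15 UMIs in 3 of those cells. Over all members, 4 of 13 endothelial genes were at least 2-fold higher and 1 lower (summed 352 against 284 CPM, median log2 ratio 0.26), and of 11 blood genes 3 were lower and none higher (summed 4042 against 7859 CPM). Etv2, a factor that starts the blood and vessel lineage, stood at 22.4 against 7.97 CPM, Pecam1 at 9.40 against 12.2 and the angiopoietin receptor gene Tek at 13.7 against 31.0. Without the 20 cells, the median of the endothelial list turned to -1.52, Hba-x had a log2 ratio of -4.48 and Fam210b of 0.64. The positive median of the endothelial list and the 2-fold excess of Fam210b thus rested on them.

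Primitive streak genes were higher but rare. Of 12 tested, 8 were at least 2-fold higher in members and none lower, with a median log2 ratio of 1.47, and all 8 rested on at most 13 UMIs each. Ratios from so few UMIs scatter widely: among genes of at least 300 UMIs only 0.439% were at least 2-fold higher and 2.91% lower. Eomes, a T-box factor of streak and endoderm, gave 12 UMIs in 6 cells, Mesp1, an early heart mesoderm factor, 11 in 5, and Gsc, an organiser homeobox gene, 9 in 7. Fgf8, the growth factor needed for cells to leave the streak, gave 13 UMIs in 7 cells (9.40 against 3.15 CPM). At least 1 of 12 streak genes (the list without the more broadly expressed Kdr and Pdgfra) was found in 27 members (18.5%) against 319 of the other WT cells (7.51%), and at least 2 in 8 members (5.48%, 2.40 to 10.5%) against 31 (0.730%).

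These 8 members had Gchfr at 272, Kdr at 201 and Rspo3 at 426 CPM, 0 UMIs of Plac1, and none of them held 3 or more contractile genes. Of 7 paraxial mesoderm genes, 1 was at least 2-fold lower and none higher. Of 12 extraembryonic mesoderm and allantois genes, 1 was higher and 3 lower.

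Nodal ligands and co-factors beside Cfc1 were followed next. Of 7, 2 were at least 2-fold higher and 1 lower. Tdgf1 (Cripto), the paralogue of Cfc1, stood at 21.7 against 1.44 CPM, 15.1 times higher (9.28 to 24.1), but its 30 UMIs lay in 6 cells and 17 of them in 1. Of 8 Nodal receptors and effectors, 1 was higher, and the type II receptor gene Acvr2b stood at 63.6 against 48.5 CPM. Fst, an extracellular trap of activins, stood at 5.78 against 17.1 CPM. Most genes of both Nodal lists thus lay within 2-fold, but 4 of the 7 ligands and co-factors had 0 UMIs in members. Of these, Lefty2 was the gene counted as lower. For Gdf3, Lefty1 and Cer1 a place within 2-fold rests on the prior count, so their level is not read as unchanged.

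Of 7 FGF ligands beside Fgf3, 2 were at least 2-fold higher. Fgf15 stood at 35.4 against 4.79 CPM, 7.40 times higher (5.27 to 10.2), with 49 UMIs in 28 cells and at most 3 in 1 cell. Fgf10, a ligand of the second heart field, stood at 20.2 against 12.3 CPM. None of 7 FGF receptors and co-receptors passed 2-fold, and Fgfr1, the main receptor of early mesoderm, stood at 65.8 against 48.0 CPM. Of 12 FGF target genes, 3 were higher and 1 lower, and the inhibitor Il17rd (Sef) stood at 13.7 against 4.15 CPM from 19 UMIs. Fgf15 was found in 19.2% of members, against 2.83% of the other WT cells and 1.34% of the Ttr-led cells.

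For Wnt, 1 of 5 other R-spondins and their receptors was higher and 1 lower. Lgr5, an R-spondin receptor and Wnt target, stood at 9.40 against 2.82 CPM from 13 UMIs, Lgr4 at 26.7 against 28.7, and Rspo1 at 4.34 against 13.03. Of 11 Wnt target genes, 4 were at least 2-fold higher and none lower, with a median of 0.93. Ccnd1, cyclin D1, was found in 35 members at 44.8 against 16.1 CPM (2.78 times, 2.10 to 3.61), and Dkk1, a secreted Wnt inhibitor, stood at 21.7 against 8.71 CPM in 11 cells. Of 8 Wnt ligands, 1 was higher and 2 lower. No gene of the S phase list (15 genes), the G2 and M phase list (16) or the list of cyclin-dependent kinase inhibitors (7) passed 2-fold in either direction, so the excess of Ccnd1 stood apart from them.

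Of 9 BMP ligands and antagonists, 1 was at least 2-fold higher and 4 lower. Bmp4, which induces ventral and extraembryonic mesoderm, stood at 167 against 131 CPM and Bmp5 at 52.8 against 34.7. Of 11 BMP targets, 1 was lower and none higher, and Msx2, a homeobox target, stood at 70.8 against 51.6 CPM. Of 12 Notch genes, 1 was higher and 2 lower, and the receptor gene Notch1 stood at 15.2 against 5.98 CPM. Of 10 retinoid genes, 3 were higher and none lower, and 1 of the 3, Aldh1a3, rested on 2 UMIs. Against the cells also without the absent genes, 1 of 8 tested was higher. Cyp26a1, which breaks down retinoic acid, stood at 22.4 against 4.92 CPM, 4.55 times higher (3.00 to 6.69). Beside these counts, the Nodal, FGF and Wnt counts above and the RGS and Hox counts below stand the shares over all genes tested. These were 6.82% at least 2-fold higher and 7.89% at least 2-fold lower.

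Of 12 RGS genes, 3 were at least 2-fold higher and none lower. The 3 were Rgs5 itself, Rgs4 from 4 UMIs and Rgs11 from 2, and Rgs3 stood at 44.1 against 30.4 CPM.

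Hox genes, which mark position along the body axis, differed by group number. Of 8 genes of groups 1 to 4, 3 were at least 2-fold higher and none lower. Hoxd1 stood at 24.6 against 4.84 CPM, 5.08 times higher (3.41 to 7.36), from 34 UMIs in 18 cells, and Hoxb4 at 36.9 against 38.8. Of 10 genes of groups 5 to 8, 6 were lower and 1 higher, with a median of -1.51, and Hoxb6 stood at 23.9 against 46.1 CPM (30.7 in the cells also without the absent genes, where 2 of 7 tested genes of these groups were lower and the median was -0.35). Of 11 genes of groups 9 to 13, 5 were lower and 1 higher, with a median of -0.78. Against the cells also without the absent genes, 1 of 5 tested was lower and the median was -0.12. Of the 11 genes, 6 had 0 UMIs in members. With 3 or more rule genes required, the median of -0.78 became 0.33, a sign that rests in part on the prior count. No change of direction is read from it. Of 18 imprinted genes 2 were lower and none higher, with the growth-limiting Cdkn1c at 781 against 955 CPM and Dlk1 at 340 against 667. Against the cells also without the absent genes, which stood at 687 CPM, Cdkn1c was higher in members (1.14 times, 1.07 to 1.21). Dlk1 stood at 422 CPM in those cells, so it stayed lower in members by a smaller distance.

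Isl1, a factor of the second heart field, stood at 28.2 against 13.4 CPM (2.10 times, 1.47 to 2.91) and was found in 17.1% of members, 6.17% of the other WT cells and 40.6% of the Ttr-led cells. Its share in members thus lay above that in the other WT cells and below that in the Ttr-led cells. As the Ttr-led cells had the highest share, they cannot serve as a gauge of free RNA for Isl1. Whether members expressed it was not tested. Pdgfra, a receptor of early mesoderm, stood at 42.6 against 36.1 CPM, and Kdr at 76.6 against 45.0 (1.70 times).

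Clustering of all kept WT cells without the 8 genes of the rule placed the members in more than 1 group. Cluster 4, led by Myl7, Ttn and Myl3 with Cfc1 and Rgs5 also among its 10 leading genes, held 41 members among 170 cells (24.1%, 17.9 to 31.3%). Cluster 3, led by Pitx1, Cdx2, Greb1 and Rgs5, held 39 of 447 (8.72%, 6.28 to 11.7%), and cluster 2, led by Pitx1 and Rprm, 21 of 710 (2.96%). The Cldn5-led cluster 10 held 10 of 193 (5.18%), and the Ttr-led cluster 13 held 0 of 224. A count of 0, taken as up to 3 cells, allows a share of up to 1.34%, and the exact interval reaches 1.63%. The rule bars cells with Epcam, Pitx1, Upk3b or Lum. Shares in clusters whose cells carry these genes, such as those led by Pitx1, are thus partly set by the choice. The same may hold for the 0 of the Ttr-led cluster. The members lay in 13 of 15 clusters, and no cluster consisted mainly of them.

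**Figure D4:**
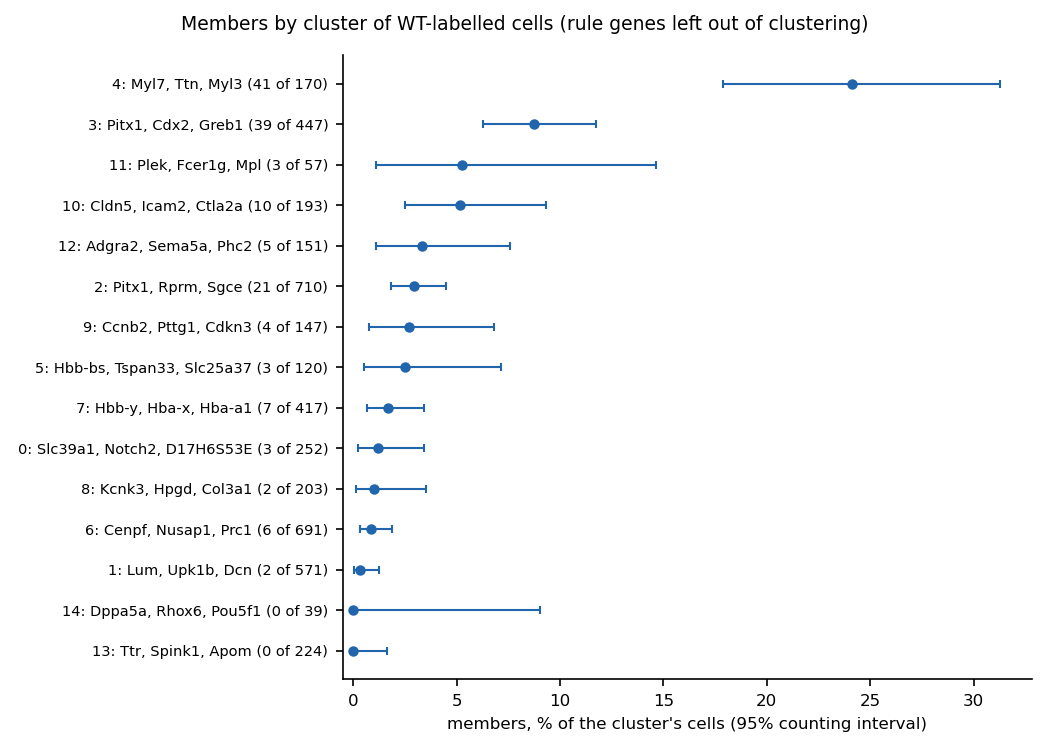
Percentage of each cluster's cells that were members, with exact 95% intervals, for Leiden clusters of the WT-labelled library made without the genes of the rule. Cluster 4 reached 24.1%, cluster 3 reached 8.72%, and the Ttr-led cluster 13 stood at 0. The absent genes of the rule lower the share in clusters whose cells carry them.

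With a finer resolution of 1.2, a cluster of 192 cells had Cfc1, Fgf3, Rgs5, Arl4c, Rnd2 and Prtg among its leading genes, although Cfc1 and Fgf3 took no part in the clustering. It held 36 members (18.8%, 13.5 to 25%). A Myl7-led cluster of 241 cells held another 46 (19.1%). So 82 of the members lay in these 2 clusters, which also held 351 cells outside the rule.

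Within clusters the members could be set beside cells alike in their other genes. In cluster 4, Rgs5 stood at 341 CPM in members and 209 in the other cells, Rnd2 at 105 and 77.4, Gchfr at 170 and 117 and Unc5c at 65.0 and 68.4. In cluster 3, Rgs5 stood at 87.5 and 63.7 CPM, Rnd2 at 99.7 and 44.8, Gchfr at 94.8 and 35.3 and Unc5c at 80.2 and 35.8. In cluster 2, Rgs5 stood at 137 and 36.6 CPM and Rnd2 at 71.3 and 34.9. The distance between members and others was thus smaller for Rgs5 in clusters 3 and 4 than over the whole library, and these genes took part in forming the clusters.

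Against 3 WT groups set by Pitx1, Upk3b or matrix genes, the members stood higher in Rgs5, Rnd2, Gchfr and Mef2c. The groups were cells with Pitx1 (944), cells with Upk3b, a uroplakin of mesothelium (1117), and cells rich in matrix genes (2595), and 253 to 938 cells were shared between pairs of them. Rgs5 was 3.43, 7.32 and 6.22 times higher in members than in these groups in turn, Rnd2 2.36, 3.34 and 3.24 times, and Gchfr 2.74, 5.64 and 4.59 times. Mef2c was 6.32, 3.99 and 4.35 times higher. Of these groups, the Pitx1 cells were nearest in Rgs5, Rnd2 and Gchfr, and farthest in Mef2c. Postn was 4.12, 4.75 and 5.64-fold lower in members. The matrix-rich cells were those with Lum or with at least 2 of Postn, Col1a1 and Col3a1. The last of these Postn values is thus partly set by how that group was chosen. The excess in Rgs5, Mef2c and Gchfr did not hold against cluster 4, which held 41 members among its 170 cells. As a whole that cluster stood at 244 CPM in Rgs5, 149 in Mef2c and 131 in Gchfr, against 137, 98.3 and 103 in all members. Rnd2 stood at 84.8 CPM in the cluster and 83.8 in all members.

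The rule can be read as steps, from cells with none of its 4 genes to cells with 3 or more, all without the absent genes and thinned to 4000 UMIs. In the WT-labelled library these steps held 1604, 434, 75 and 12 cells. Rgs5 stood at 24.3, 67.4, 110 and 292 CPM, the last with an interval of 159 to 489. Rnd2 stood at 28.2, 39.2, 90.0 and 104 CPM, Gchfr at 31.8, 72.0, 86.7 and 104, and Prtg at 93.5, 118, 207 and 333. The values of these 4 genes were ordered by step, and cells with 1 gene, just outside the rule, lay between. At the final step, which held 12 cells, Rnd2 and Gchfr had 5 UMIs each, and the interval (33.8 to 243) spanned their values at the steps with 1 and 2 genes.

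Unc5c stood at 17.5, 30.5, 50 and 41.7 CPM and Mef2c at 47.1, 75.5, 117 and 41.7, the last from 2 UMIs, so that no order can be read at the final step. Hand1 stood at 568, 566, 727 and 729 CPM.

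In the TKO-labelled library, which the rule did not use, the steps held 1383, 517, 63 and 7 cells. Rgs5 stood at 136, 166, 163 and 321 CPM there, so that cells with none of the genes already stood near the level of WT cells with 2 of them. Rnd2 stood at 11.03, 15.5, 31.7 and 35.7 CPM, Gchfr at 66.0, 80.8, 103 and 143 and Unc5c at 20.4, 35.3, 51.6 and 143. The final step held 1 UMI of Rnd2 and 4 each of Gchfr and Unc5c, so that no order is read from it. Prtg stood at 362, 369, 357 and 286 CPM. Hand1 stood at 46.5, 105, 190 and 0 CPM, the last from 0 UMIs in 7 cells. For cells with 2 or more genes, Rgs5 stood at 135 CPM (99.2 to 180) in WT and 179 (133 to 235) in TKO, and Rnd2 at 92.0 (62.9 to 130) and 32.1 (14.7 to 61.0). The difference between libraries cannot be told apart from a difference between 2 cultures, since each genotype had 1 library.

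**Figure D5:**
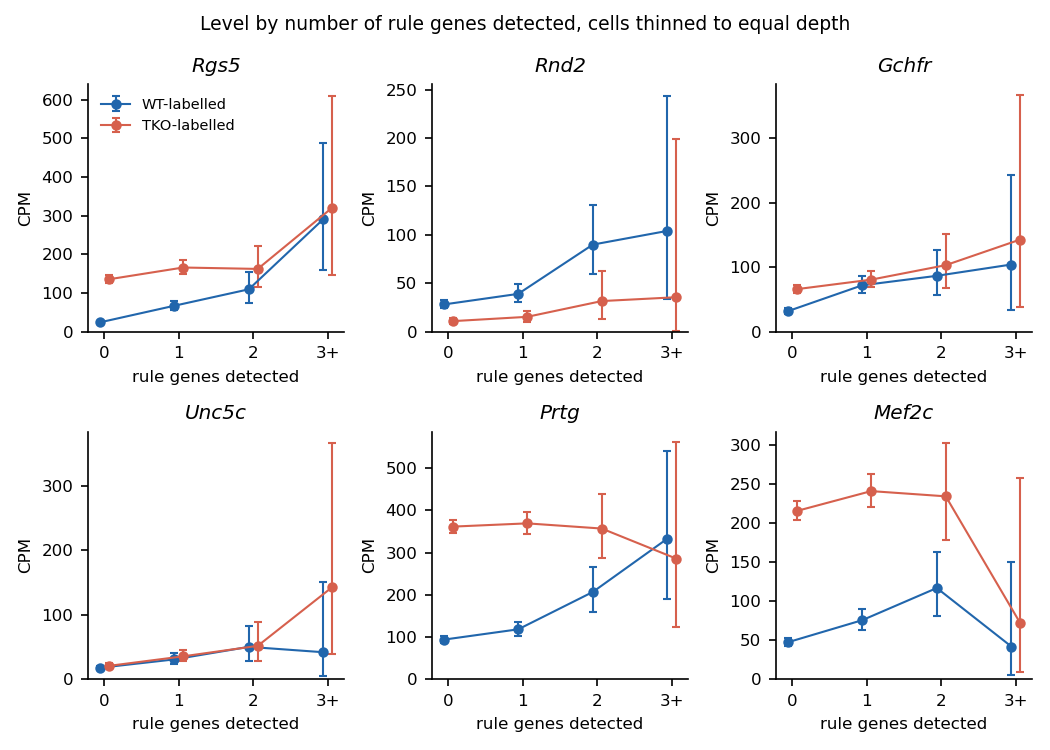
Level in CPM, with 95% counting intervals, by number of the 4 rule genes found in a cell, for cells without the absent genes thinned to 4000 UMIs, in the WT-labelled and TKO-labelled libraries. Rgs5 ran from 24.3 to 292 CPM in the WT-labelled library and from 136 to 321 in the TKO-labelled library.

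The absent genes of the rule did other work in the TKO-labelled library, where Epcam was found in 1390 cells (43.5%), Lum in 31, Pitx1 in 23 and Upk3b in 4. Cfc1 was found in 25.1% of TKO-labelled cells against 6.56% of WT-labelled ones, and Fgf3 in 3.50% against 6.85%. Without thinning, TKO cells meeting the rule had a median of 10812.5 UMIs and the other TKO cells 9601. Against those others, Hand1 stood at 184 against 35.8 CPM (5.15 times, 4.60 to 5.77), Tbx20 at 43.2 against 14.1 and Bmp4 at 94.8 against 38.5. Unc5c stood at 54.1 against 13.3 CPM (4.06 times, 3.30 to 4.98), Rgs5 at 139 against 90.2 (1.54 times, 1.37 to 1.73) and Rnd2 at 19.7 against 14.4 (1.37 times, 0.982 to 1.86). In the TKO-labelled library 5.6% of 13991 genes were at least 2-fold higher in these cells and 9.15% at least 2-fold lower.

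By list, 5 of 16 lateral and heart progenitor genes, 6 of 10 BMP ligands and antagonists, 6 of 10 Hox genes of groups 1 to 4 and 7 of 12 streak genes were at least 2-fold higher in the TKO cells meeting the rule. Contractile genes were not: 1 of 14 cardiomyocyte genes was higher and 3 lower, and 25 of 198 such cells (12.6%) held 3 or more contractile genes against 321 of the other 2999 (10.7%). Against their own libraries, the counts of lateral mesoderm genes were thus 5 of 16 in TKO and 2 of 15 in WT. These counts were taken against unlike cells. The list summed to 571 CPM in the other TKO cells and 1092 in the other WT cells. In the cells meeting the rule it summed to 1063 in TKO and 1160 in WT. The difference between these comparisons was not tested.

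Pairs of genes were also read across all thinned WT cells, as a description in which shared depth is fixed. Rgs5 was found in 33.3% of cells with Cfc1 and 7.67% of those without, in 17.8% with Fgf3 and 8.31% without, in 14.1% with Rspo3 and 8.0% without, and in 13.8% with Vstm2b and 8.45% without. Cfc1 was found in 10.7% of cells with Fgf3 and 3.74% without. Rnd2 was found in 11.2% of cells with Fgf3 and 10.3% without, and in 18.8% with Rspo3 and 9.27% without. With Cfc1 the share with Rnd2 was 17.9% and without it 10.1%, with Vstm2b 16.4% and 10.07%, and with Rgs5 19.4% and 9.51%. Of the 4 rule genes, Cfc1 thus went with the highest share of cells with Rgs5 (26.1 to 41.2%), while for Rnd2 the intervals with Rspo3 (15.3 to 22.6%), Cfc1 (12.3 to 24.7%) and Vstm2b (11.5 to 22.4%) overlapped. In the TKO-labelled library Rgs5 was found in 37.0% of cells with Cfc1 and 19.4% without, but in 23.9% with Fgf3 and 21.9% without, and in 17.2% with Rspo3 and 22.3% without.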

How the data were processed

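Counts for each gene in each cell of 2 single-cell RNA libraries were used as the authors deposited them, whole numbers read here as UMI counts. Seurat 3 and mm10 are named, without a role, per the submitters' processing notes. The sources used here give no aligner, counter, chemistry or prior filter. The TKO-labelled header named 1 barcode more than each row had values, so its cells were read by position. Rows were matched by position because 116 names differed in their ending.

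Cells with up to 15% mitochondrial UMIs were kept, and no doublet caller was run. UMIs were summed over cells and scaled to CPM, with exact Poisson intervals for levels, exact binomial intervals for ratios and Clopper-Pearson intervals for shares. A gene was tested for a 2-fold ratio (prior count 0.5) if it had at least 10 UMIs. No p-value was computed, as each group was 1 library and cells are not replicates. Thinning drew 4000 UMIs per cell without replacement. Leiden clusters (scanpy 1.11.5, igraph 0.11.9, resolution 0.8) used 2000 variable genes without the 8 of the rule, 30 components and 15 neighbours. Python 3.11.15, numpy 2.4.6 and scipy 1.17.1 were used, and the ratio script was tested on simulated data.

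Named genes were the 12 highest and 12 lowest ratios at 50 CPM or more (without mitochondrial, ribosomal protein, Gm and Rik genes), up to 3 at either end of each of 36 gene lists, and the given and defining markers. Some genes found in clusters, list counts or splits of the members were added after their values were seen. The members and lists were chosen with earlier results of these data known.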

Additional observations from a re-analysis of the deposited data

How the results depend on the processing

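The member share of 3.32% was 0.820% with 3 or more of the 4 genes required (36 cells), 2.41% with Vstm2b left out of the rule (106), 2.16% in thinned cells (87) and 6.47% without the condition on absent genes (284). The number of genes at least 2-fold higher, 955, was 2517 with 3 or more rule genes required, 2210 as the mean within 3 depth classes, 295 among genes of at least 50 UMIs, 4723 with no minimum, 1556 with a prior count of 1 and 35 among genes of at least 300 UMIs. In the settings that gave 2517, 2210, 4723 and 1556, a gene with 0 UMIs in members could count as higher through the prior count alone. These larger numbers are therefore not read as more genes being higher. The number lower, 1105, was 491 within depth classes, 543 with a prior count of 1 and 232 at 300 UMIs. At resolution 0.4 the cluster with most members held 39.0% of them. Of 1132 recomputed log2 ratios of 82 named genes, 997 stayed within the counting interval, 132 moved out of it and 3, of genes at least 2-fold higher, turned lower: Myl7 to -0.86 with 3 or more rule genes and to -1.59 without the contractile members, and Ttn to -0.97 without them. Counting ratios of any size, 27 values of 14 genes had the other sign. Of 500 medians of 36 lists, 21 moved by more than the spread within the list, and the cardiomyocyte list, at least 2-fold higher, turned to -0.19 without the contractile members. Counting medians of any size, 80 values of 23 lists had the other sign. Among them were the endothelial list at -1.52 and the smooth muscle list at -0.64 without the blood- and endothelium-led members. The list of Nodal ligands went from -0.27 to 2.01 within depth classes, where 5 of its 7 genes counted as at least 2-fold higher. As 4 of the 7 had 0 UMIs in members, the prior count set part of that value, and no rise is read from it. The settings that left out contractile members, the member richest in Myl7 or blood- and endothelium-led members, and the minimum of 300 UMIs, were added after seeing the data. No paired analysis was possible because each group had 1 library. Most members carried few UMIs of any named gene, so that an undetected gene in 1 cell is not read as absent.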
